A study of Mus musculus with 8 samples.

Results

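The genes that write, copy and remove cytosine methylation were examined as a group in mouse induced pluripotent stem cells (iPSCs) with and without PIWI proteins. The group is a named list of 10 genes with roles in this pathway: the maintenance genes Dnmt1, Uhrf1 and Hells, the de novo genes Dnmt3a, Dnmt3b and Dnmt3l, the dioxygenase genes Tet1, Tet2 and Tet3, and the glycosylase gene Tdg. All 10 had at least 1 RefSeq record among the 21428 gene symbols of the count table, and 9 of them had reads. Of several records per symbol, the most counted one on average was taken.

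Cytosine methylation at CpG sites is copied onto the new strand after replication by DNMT1, which UHRF1 brings to half-methylated DNA, while the chromatin remodeler HELLS opens compact chromatin to the methyltransferases. DNMT3A and DNMT3B place new methyl groups, with the catalytically inactive DNMT3L as a cofactor in germ cells and early embryonic cells. TET enzymes oxidize methylcytosine, and TDG excises the oxidized bases so that base excision repair can restore cytosine. In male germ cells PIWI proteins and their small RNAs direct new methylation to retrotransposons, and pluripotent stem cells are known for strong expression of Dnmt3b, Dnmt3l and Tet1.

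The TKO clones came from embryonic fibroblasts (MEFs) that lacked functional Miwi, Mili and Miwi2, and the control (Ctrl) clones from littermate MEFs heterozygous for all 3 genes in the methods of the study, which its legends call wild type or heterozygous. All MEFs were of mixed C57BL/6-s129 background and carried the Oct4-GFP reporter, and all were reprogrammed with retroviruses for Oct4, Sox2, Klf4 and c-Myc. Colonies were picked onto growth-arrested MEF feeders, and RNA came from individual clones below passage 10, grown with LIF. Each library is therefore 1 clone, and the labels do not say which embryo a clone came from, so that p-values measure the spread between these clones. There were 4 Ctrl clones (33, 34, 41 and 43) and 4 TKO clones (35, 37, 47 and 48), and either genotype had 2 clones with a number from 33 to 37 (the thirties series) and 2 from 41 to 48 (the forties series). No label explains the numbers.

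Total counts ran from 8983203 to 24688324 reads in the Ctrl libraries and from 24593995 to 52457455 in the TKO libraries. In the thirties series the Ctrl libraries were the shallowest of all and the TKO libraries the deepest, so that depth and genotype cannot be told apart there. Depth also went with series inside each genotype. The thirties libraries were shallower than the forties libraries in Ctrl clones and deeper in TKO clones. The records of the targeted genes separated the genotypes, with 758 to 1028 normalized counts of Mili in Ctrl and 3845 to 10084 in TKO clones, 487 to 769 against 936 to 2862 of Miwi2, and 8.13 to 28.8 against 2.41 to 4.53 of Miwi. Such whole-record counts do not measure the loss of protein, since the study describes mutant alleles that are still transcribed. Of 10 pluripotency markers, 9 were detected in each clone (Esrrb, with 2 records, had 0 to 3 reads). The summed level of the 10 was 124025 to 175783 in Ctrl and 153389 to 166018 in TKO clones. Dppa5a was the largest part of this sum, with a mean of 58871 in Ctrl and 82346 in TKO clones, so the sum hides single markers. Pou5f1 went the other way, with 24310 to 28971 in Ctrl and 15866 to 19185 in TKO clones. Of all records, 8.33% did not overlap between genotypes. The 12 fibroblast markers, which feeders also express, were detected in every clone as well.

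How the members could be counted set what can be said of them. Dnmt1, Hells, Tet1, Tet2 and Tet3 have 1 record each in the table. The other genes have several records with shared sequence, and counts of such genes were low throughout the table, with a median of 61.1 reads per kilobase and library for coding records that are alone for their symbol, 1.40 where a symbol has 2 records and 0.385 where it has 3. The 4 Uhrf1 records were listed at 0 in all 8 libraries, and no level is given for Uhrf1, a gene that dividing cells need. For Dnmt3b, 4 of 5 records were at 0, and none of these 4 holds a stretch of 50 bases, the read length, that is absent from the other records. The counts of Dnmt3a, Dnmt3b, Dnmt3l and Tdg are accordingly counts of 1 record and not levels of the gene. Tet1 was identified by length, since the names table lacked its record (NM_027384, 13986 bases) and Tet1 was the only gene of the mm9 annotation with a transcript of that length. The same rule gave the right symbol for 74 of 77 long records with a known name (96.1%).

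The start regions of Hells and Dnmt3l are shown. Hells was the only member with an edgeR adjusted p under 0.05 for genotype within both series, and records of Dnmt3l differ at their starts. Each line holds the 250 bases before a RefSeq transcription start (build GRCm38.p6), read 5′ to 3′ on the strand of the gene, with CG dinucleotides in capitals. The Hells region is chr19:38930740-38930989 (plus strand), and the Dnmt3l regions are chr10:78042037-78042286 for start 1 and chr10:78049592-78049841 for start 2 (both plus strand).
Hells: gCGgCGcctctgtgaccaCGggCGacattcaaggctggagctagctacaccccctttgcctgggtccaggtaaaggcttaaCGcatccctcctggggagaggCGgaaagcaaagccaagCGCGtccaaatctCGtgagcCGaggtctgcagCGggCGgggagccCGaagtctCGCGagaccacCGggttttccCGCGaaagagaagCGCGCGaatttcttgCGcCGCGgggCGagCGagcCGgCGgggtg
Dnmt3l start 1: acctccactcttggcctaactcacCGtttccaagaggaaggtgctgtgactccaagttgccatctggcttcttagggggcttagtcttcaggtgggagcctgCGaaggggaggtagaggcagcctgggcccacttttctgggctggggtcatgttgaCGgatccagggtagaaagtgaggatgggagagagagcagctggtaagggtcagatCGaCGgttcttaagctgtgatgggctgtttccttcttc
Dnmt3l start 2: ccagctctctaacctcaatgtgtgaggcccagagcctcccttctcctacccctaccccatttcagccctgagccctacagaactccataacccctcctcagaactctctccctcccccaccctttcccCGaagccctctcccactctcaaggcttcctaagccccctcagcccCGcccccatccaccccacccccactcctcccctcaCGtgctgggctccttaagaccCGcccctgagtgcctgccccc
The Hells region held 28 CG dinucleotides, a number reached by 7.6% of the 32851 starts in the table, where the median was 6. The Dnmt3l regions held 5 at start 1 and 4 at start 2, below that median but reached by 55.6% and 62.2% of starts. Start 3 of Dnmt3l, which is not shown, held 3 CG dinucleotides, a number reached by 71.0% of starts. Sequence after start 1 opened the transcript that matches NM_001081695, and sequence after start 2 opened the one that matches NM_019448. The letters TTTNNCGC, in either direction, which resemble sites bound by E2F cell cycle factors, occurred in 4 of 17 start regions of the members (1 each for Hells and Dnmt1, and 2 for Uhrf1) and in 4.3% of all starts. These letters hold a CG, and the 4 regions had 10 to 30 CG dinucleotides, above the median of 6. All starts are therefore not a like background, and enrichment was not tested. The matches are of letters only and were not read as binding sites.

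Maintenance of methylation was examined first. Dnmt1 (NM_010066, mm9 chromosome 9, 20711650 to 20757317) had 13514, 11724, 11846 and 12323 normalized counts in Ctrl 33, 34, 41 and 43 and 13289, 12505, 12738 and 9478 in TKO 35, 37, 47 and 48. TKO 48 was the lowest clone, and the other TKO clones lay within the Ctrl range. Mean counts were 12352 ± 817 for Ctrl against 12003 ± 1715 for TKO iPSCs (SD over 4 clones), with a log2 fold change of -0.04 (95% interval -0.30 to 0.21; edgeR adjusted p = 0.888). The interval bounds the difference and does not show that the genotypes were alike.

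Hells (NM_008234, chromosome 19, 39005405 to 39045541) was the member with the clearest difference by genotype. Its normalized counts were 7972, 9293, 10883 and 11599 in Ctrl 33, 34, 41 and 43 and 6314, 6658, 8229 and 7412 in TKO 35, 37, 47 and 48. Both TKO clones lay below both Ctrl clones in either series, but over all 8 clones the genotypes overlapped, because TKO 47 exceeded Ctrl 33. With 2 clones against 2 in each series, the share of all records that separate in both was not counted. Ctrl iPSCs averaged 9937 ± 1626 and TKO iPSCs 7153 ± 851 (SD over 4 clones), a ratio of 0.720. Without regard to series the log2 fold change was -0.47 (standard error, SE, 0.13), and the edgeR adjusted p of 0.207 did not pass 0.05. In an exact two-sided permutation test on these 8 values p was 0.0571, where the smallest that 70 arrangements can give is 0.0286.

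When the model also held clone series, Hells was called lower in TKO iPSCs, with a log2 fold change of -0.47 (SE 0.08; edgeR adjusted p = 0.0166). The change was -0.41 within the thirties series (adjusted p = 0.0363) and -0.52 within the forties series (adjusted p = 0.0451), and the difference between these was -0.11 with a standard error of 0.15 (adjusted p = 0.743). The call with the series term was lost in 5 of 8 fits with 1 clone left out: leaving out Ctrl 41, Ctrl 43, TKO 35, TKO 37 or TKO 47 gave adjusted p of 0.0502, 0.0619, 0.0793, 0.0571 and 0.0517 with changes between -0.44 and -0.49. Within the thirties series the call was lost without Ctrl 34 (adjusted p = 0.0915), Ctrl 41 (0.0706), Ctrl 43 (0.0717), TKO 35 (0.242) or TKO 37 (0.162). Within the forties series it was lost without Ctrl 41 (0.223), Ctrl 43 (0.332), TKO 35 (0.131), TKO 37 (0.131), TKO 47 (0.0682) or TKO 48 (0.146). Every one of these fits gave a lower level in TKO clones.

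Summed marker levels were set beside the Hells result. The sum over 12 fibroblast markers was 65024 and 95993 in the Ctrl and 37960 and 40454 in the TKO clones of the thirties series. In the forties series it was 46867 and 50695 against 62762 and 65519. By log2 fold change, Lox, Fbn1 and Prrx1 were lower in TKO clones of both series. The other markers were lower in the thirties and higher in the forties series. The part of these markers in the Hells change was not tested. For the interaction of genotype and series, 7 of these 12 markers were called in edgeR (Col1a2, Thy1, Twist2, Postn, Fbn1, S100a4 and Vim), against 1.3% of all records. Hells is strongly expressed in dividing cells, and the sum over 16 S-phase replication genes ran from 119223 to 136148 in Ctrl and from 119668 to 134742 in TKO clones. The part of cell division in the Hells change was not tested. In bulk RNA, fewer cells of a kind and less RNA per cell cannot be told apart.

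**Figure D1:**
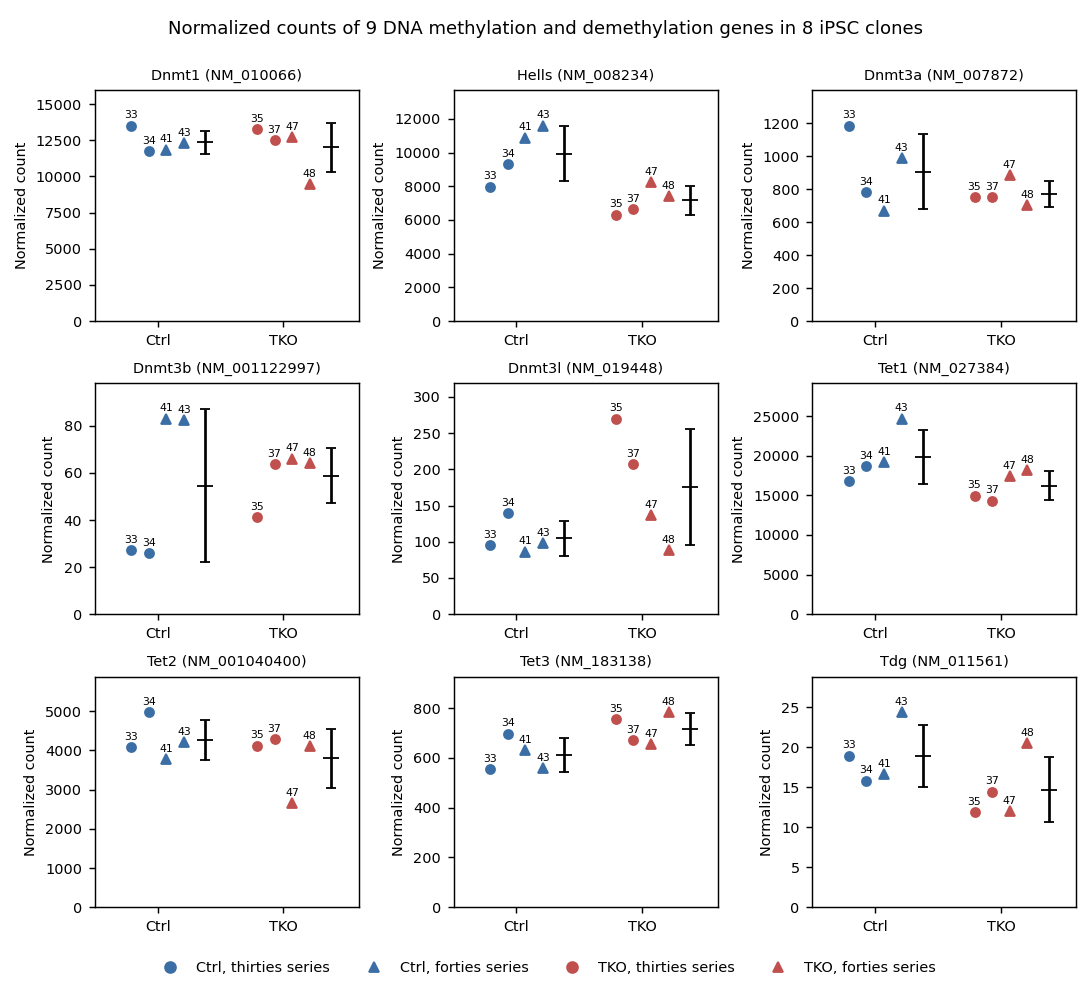
Normalized counts (linear axes from 0) of the 9 member genes with reads in each Ctrl and TKO clone, numbered, with circles for the thirties and triangles for the forties series and black bars for the mean and SD of 4 clones. Hells lies lower in TKO clones of both series, Dnmt3b in Ctrl clones is split by series (27.1 and 25.9 against 83.1 and 82.5), and Dnmt3l is highest in TKO 35 and TKO 37.

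Of the de novo genes, Dnmt3a was counted mainly on NM_007872 (chromosome 12, 3806007 to 3914443), with 1186, 783, 670 and 989 normalized counts in Ctrl 33, 34, 41 and 43 and 751, 750.5, 886 and 703 in TKO 35, 37, 47 and 48. Ctrl 33 was the highest and Ctrl 41 the lowest clone, so all TKO values fell inside the Ctrl range. The log2 fold change was -0.23 (SE 0.18; edgeR adjusted p = 0.562). A second record, NM_153743, begins at an internal start of the gene and had 15 to 43 reads per library. In the matched transcripts 45.9% of the 50-base stretches are particular to the first record and 3.03% to the second, so that the counts do not compare the transcripts.

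Dnmt3b, whose product methylates pericentromeric repeats and CpG islands, was counted on NM_001122997 (chromosome 2, 153475186 to 153513466) with 10 to 132 reads per library. The normalized counts were 27.1, 25.9, 83.1 and 82.5 in Ctrl 33, 34, 41 and 43 and 41.3, 63.7, 66.1 and 64.1 in TKO 35, 37, 47 and 48. The Ctrl clones of the forties series were the highest and those of the thirties series the lowest of all clones, with the TKO clones between them. Over all clones the log2 fold change by genotype was 0.06 (SE 0.41; edgeR adjusted p = 0.958).

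Within the series the genotype change of Dnmt3b had opposite signs, 0.99 in the thirties (SE 0.32; edgeR adjusted p = 0.0708) and -0.35 in the forties (SE 0.26; edgeR adjusted p = 0.499). The difference between them was -1.34 (standard error 0.41), with an unadjusted p of 0.00941 and an adjusted p of 0.129 from edgeR that did not pass. Of the 4159 stretches of 50 bases in the matched transcript, 48 are absent from the other Dnmt3b records.

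Dnmt3l (chromosome 10, 77504692 to 77526367) was counted mainly on NM_019448. Its normalized counts were 94.8, 139.7, 86.2 and 97.8 in Ctrl 33, 34, 41 and 43 and 269.9, 207, 137 and 88.1 in TKO 35, 37, 47 and 48. TKO 35 and TKO 37 exceeded every other clone, while TKO 47 and TKO 48 lay within the Ctrl range. Ctrl iPSCs averaged 105 ± 23.9 and TKO iPSCs 176 ± 79.6 (SD over 4 clones).

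The log2 fold change of Dnmt3l was 0.75 (SE 0.34; edgeR adjusted p = 0.338), and with the series term 0.65 (SE 0.23; edgeR adjusted p = 0.123). Leaving out TKO 48 took the latter past the threshold, at 0.83 (adjusted p = 0.0374). Within the thirties series it was 0.99 with an adjusted p of 0.0522, just over the threshold, and it fell under it with TMM scaling (0.0493), without a filter (0.0218), with at least 10 reads in every library (0.0488) and in DESeq2 (0.0170), as well as without Ctrl 34 (0.0467), TKO 47 (0.0333) or TKO 48 (0.0333). Within the forties series it was 0.29 (adjusted p = 0.621), and the difference between the series was -0.71 (SE 0.40; edgeR adjusted p = 0.383).

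The Dnmt3l records differed in their reads. NM_019448, which begins at the second start printed above, had 35 to 477 reads per library and NM_001081695, which begins at the first, had 3 to 21, although the matched transcripts have 69 and 215 stretches of 50 bases of their own. The clones therefore held more reads for the record with fewer stretches of its own, and NM_001081695 was too low to compare genotypes, with 3.42 to 13.5 normalized counts over all clones.

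The demethylation genes overlapped between genotypes as well. Tet1 (chromosome 10, 62267318 to 62361866), which encodes the TET enzyme typical of embryonic stem cells, had 16762, 18654, 19201 and 24680 normalized counts in Ctrl 33, 34, 41 and 43 and 14979, 14327, 17464 and 18166 in TKO 35, 37, 47 and 48. TKO 35 and TKO 37 lay below each Ctrl clone, and Ctrl 43 stood above the rest. As for Hells, the TKO clones lay below the Ctrl clones within either series, and the share of all records that do so was not counted. Ctrl iPSCs averaged 19824 ± 3402 and TKO iPSCs 16234 ± 1867 (SD over 4 clones).

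The log2 fold change of Tet1 was -0.29 (SE 0.13; edgeR adjusted p = 0.346), and -0.29 with the series term (SE 0.09; edgeR adjusted p = 0.0851). Within the thirties series it was -0.27 and within the forties -0.30, with adjusted p of 0.171 and 0.213, and DESeq2 with the series term put it under the threshold (adjusted p = 0.0449). The difference between the series was -0.03 (SE 0.17; edgeR adjusted p = 0.956). The change in the forties series was -0.11 without Ctrl 43 and -0.47 without Ctrl 41.

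Tet2 (NM_001040400, chromosome 3, 133126643 to 133207354) had 4077, 4985, 3772 and 4221 normalized counts in Ctrl 33, 34, 41 and 43 and 4125, 4290, 2660 and 4108 in TKO 35, 37, 47 and 48. TKO 47 was lowest and the other TKO clones lay within the Ctrl range, with a log2 fold change of -0.17 (95% interval -0.52 to 0.18; edgeR adjusted p = 0.625). Tet3 (NM_183138, chromosome 6, 83312367 to 83391672), the form found in the oocyte and in differentiating cells, had 555, 698, 632.5 and 560.4 in Ctrl 33, 34, 41 and 43 and 757, 670.4, 656 and 786 in TKO 35, 37, 47 and 48. The 2 highest values were those of TKO 35 and TKO 48 and the 2 lowest those of Ctrl 33 and Ctrl 43, but the genotypes overlapped, and the log2 fold change was 0.23 (95% interval -0.06 to 0.52; edgeR adjusted p = 0.424).

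Tdg (NM_011561, chromosome 10, 82092573 to 82113544) rested on 7 to 30 reads per library, and a second record had 6 to 29. Its normalized counts were 19.0, 15.8, 16.6 and 24.5 in Ctrl 33, 34, 41 and 43 and 11.9, 14.5, 12.0 and 20.5 in TKO 35, 37, 47 and 48. TKO 35, TKO 37 and TKO 47 lay below each Ctrl clone and TKO 48 above all but Ctrl 43. The log2 fold change of -0.37 had a 95% interval of -1.04 to 0.29 (adjusted p = 0.566 from edgeR), which includes 0.

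Over the 9 members with reads, 0 had an adjusted p under 0.05 for TKO against Ctrl over all clones in edgeR, where 0.24% of the 16235 tested records did, and 1 had an unadjusted p under 0.05 (Hells), against 14.8% of records. DESeq2 called 0 as well. With the series term 1 member was called, Hells, lower (1 of 8 without Tet1), against 5.7% of all records. Within the thirties series 1 member was called, against 11.9% of all records, and within the forties series 1, against 1.98%, both times Hells, lower. The interaction of genotype and series called 0 members, against 1.3% of records, 1 had an unadjusted p under 0.05 (Dnmt3b), against 18.7% of records, and DESeq2 called 0. The median log2 fold change of the members was -0.17 with the series term, beside -0.01 over all records. No member had genotypes that did not overlap over all 8 clones, where 8.33% of records did.

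**Figure D2:**
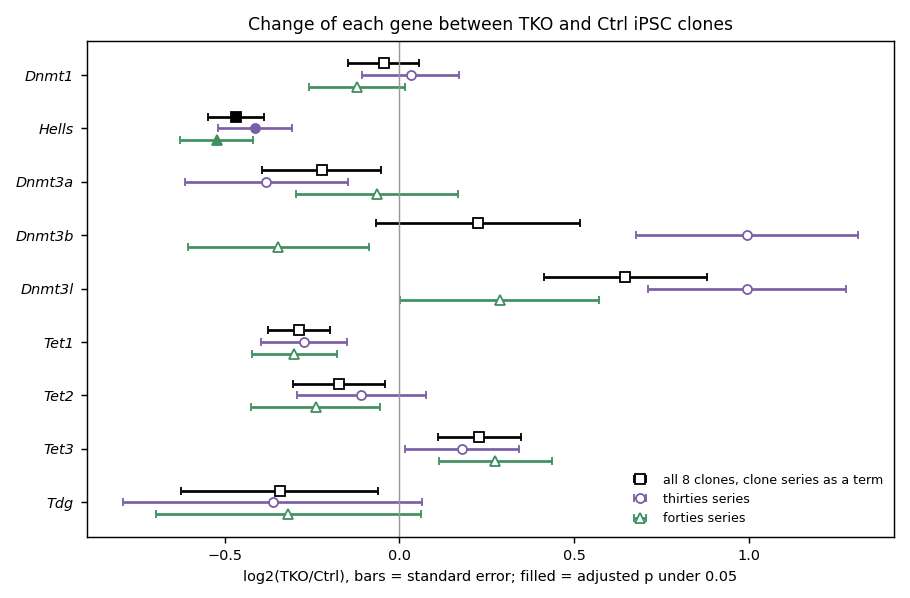
Log2 fold change of TKO over Ctrl clones (horizontal axis) with its standard error for each member, from all 8 clones with the series as a term (squares), the thirties (circles) and the forties series (triangles). Filled symbols have an adjusted p under 0.05 and belong to Hells, and the estimates for Dnmt3b lie at 0.99 (thirties) and -0.35 (forties).

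Levels of the members were compared with each other per kilobase, among the genes with a single record. Hells had 2078 to 3817 normalized counts per kilobase, Dnmt1 1798 to 2564, Tet1 1024 to 1765, Tet2 289 to 542 and Tet3 50.9 to 72.0. Dnmt1 exceeded Tet1, Tet1 exceeded Tet2 and Tet2 exceeded Tet3 in 8 of 8 clones. Hells exceeded Dnmt1 in 6 of 8 clones, the exceptions being TKO 35 and TKO 37, and their mean difference of 502 ± 695 counts per kilobase (SD, n = 8 clones) was within its spread.

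The ratio of Tet2 to Tet3 per kilobase was 7.07 to 8.93 in the Ctrl clones and 4.81 to 7.59 in the TKO clones. Only TKO 37 reached the Ctrl range, and an exact two-sided permutation test of the difference gave p = 0.0571. The ratio of Hells to Dnmt1 was 1.41 ± 0.279 for Ctrl against 1.06 ± 0.235 for TKO iPSCs (SD over 4 clones; exact permutation p = 0.114). The ratio of Tet1 to Tet2 had p of 0.743 and that of Tet1 to Dnmt1 p of 0.371 in the same exact test. None of these 4 ratios passed 0.05, and the test takes no account of clone series. In both the Hells to Dnmt1 and the Tet2 to Tet3 ratio, the TKO clones lay below the Ctrl clones within either series. The Tet1 to Tet2 and Tet1 to Dnmt1 ratios overlapped between genotypes within the forties series. This was noted after the values were seen, and ratios of other gene pairs were not counted.

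**Figure D3:**
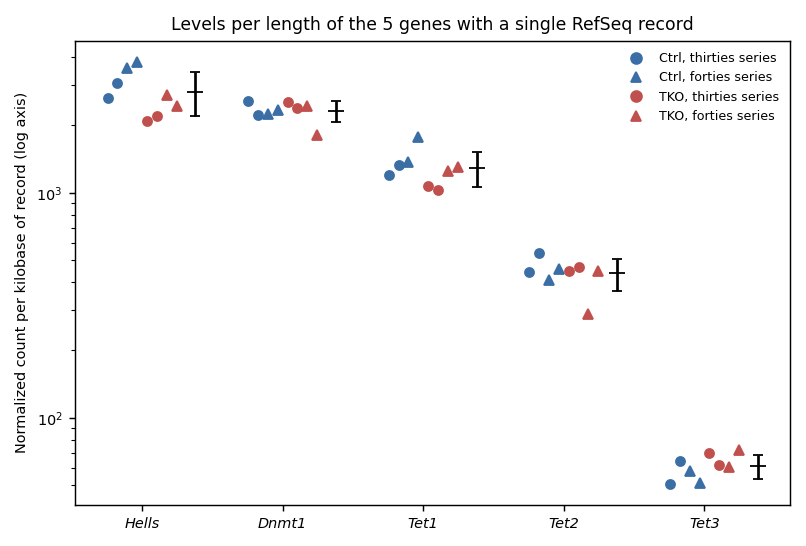
Normalized count per kilobase of record (log axis) for the 5 members with a single RefSeq record, 1 symbol per clone, coloured by genotype and shaped by series, with black bars for the mean and SD of 8 clones. Hells and Dnmt1 overlap, Tet1 at 1024 to 1765 lies below Dnmt1 in every clone, and Tet3 at 50.9 to 72.0 lies lowest.

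The clone series was compared next. In the forties against the thirties series, with genotype as a term, 3 of 9 members were called in edgeR (2 of 8 without Tet1), against 19.4% of all records. Hells was higher in the forties series (log2 fold change 0.33, standard error 0.08, adjusted p = 0.0214), as was Tet1 (0.30, SE 0.09; adjusted p = 0.0443), and Dnmt3l was lower (-0.75, SE 0.23; adjusted p = 0.0482). These calls did not hold in each fit with a clone left out. Hells lost its call without Ctrl 41, Ctrl 43, TKO 35, TKO 37 or TKO 47 (adjusted p = 0.0502 to 0.0769), Tet1 without Ctrl 33, Ctrl 43, TKO 35, TKO 37, TKO 47 or TKO 48 (0.0812 to 0.122), and Dnmt3l without any 1 clone other than Ctrl 33 (0.0612 to 0.158), and in each case the direction was kept.

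Dnmt3b was higher in the forties series by 0.87 (SE 0.29; edgeR adjusted p = 0.0634), and passed the threshold without a filter (0.0466), in DESeq2 (0.0290) and without TKO 37 (1.17, adjusted p = 0.0353). It was the only member whose series did not overlap, with 25.9 to 63.7 normalized counts in the thirties and 64.1 to 83.1 in the forties clones. Of all records 16.1% had series that did not overlap. Within Ctrl clones the change was 1.65 (SE 0.32; edgeR adjusted p = 0.0213), the only call among members there, against 6.58% of all records. Within TKO clones it was 0.30 (adjusted p = 0.421). The only member called there was Dnmt3l, lower in the forties series by a log2 fold change of -1.09 (SE 0.27; edgeR adjusted p = 0.0205), against 23.9% of all records. Its change within Ctrl clones was -0.38 (adjusted p = 0.473). The Dnmt3b record had 10 and 18 reads in Ctrl 33 and 34 and 80 and 81 in Ctrl 41 and 43. Depth and series cannot be told apart within either genotype.

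**Figure D4:**
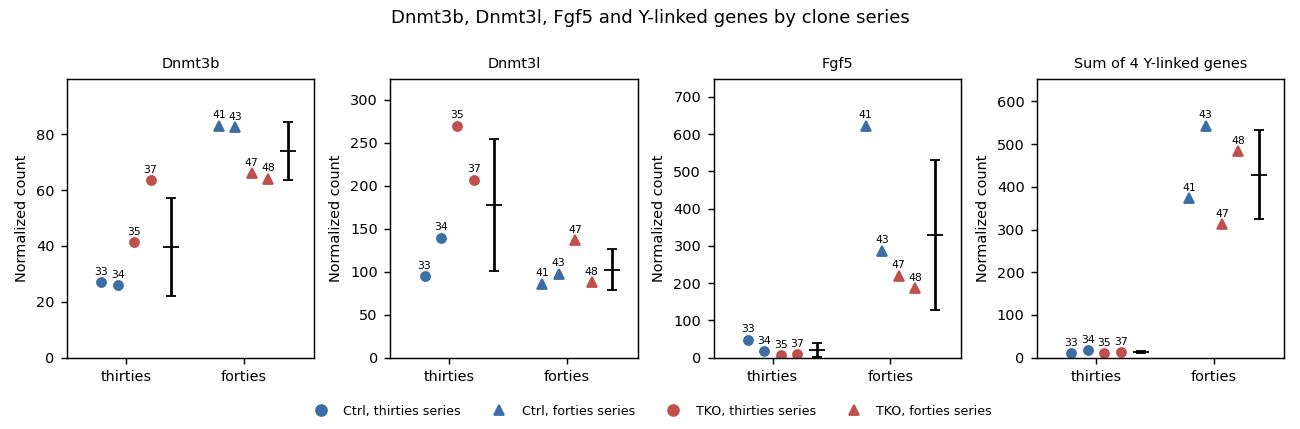
Normalized counts of Dnmt3b, Dnmt3l, Fgf5 and the sum of 4 Y-linked genes in the thirties and forties clones, with the mean and SD of 4 clones. Dnmt3b is below 64 in all thirties clones, Dnmt3l is highest in TKO 35 and TKO 37, and Fgf5 and the Y-linked sum are low in the thirties and higher in every forties clone.

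Other genes moved with the series as well. The sum of the Y-linked genes Ddx3y, Eif2s3y, Kdm5d and Uty was 10.8 to 17.3 normalized counts in the thirties and 313 to 543 in the forties clones, and Xist, from the X chromosome, was 374.6 to 726 and 625 to 892. Of the 8 primed epiblast genes, which mark the state after implantation and include Dnmt3b itself, 3 were called higher in the forties series and 0 lower. These were Fgf5 (log2 fold change 4.24), Otx2 (1.80) and T (3.25). Of the methylation partners, 4 of 10 maintenance genes were called between series (Pcna, Usp7 and Cdca7l higher in the forties, Lig1 lower), 1 of 12 de novo regulators (Ctcf, higher), 7 of 18 TET partners and repair genes (3 higher, 4 lower), 1 of 7 readers (Zbtb4, higher) and 4 of 12 supply genes (2 higher, 2 lower), against 19.4% of all records. Of the S-phase genes 3 of 16 were higher, of the germline genes 1 of 12 was lower and of the fibroblast markers 2 of 12 were higher. The part of these differences in the series changes of Dnmt3b, Dnmt3l, Hells and Tet1 was not tested, and what sets the series apart cannot be told apart from the clones in each.

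Of the 59 tested genes of 5 lists around the methylation pathway, 5 were called by genotype with the series term (8.47%), against 5.7% of all records. Within the thirties series 6 were called (10.2%, against 11.9% of records) and within the forties series 3 (5.08%, against 1.98%). Of 10 partners of maintenance methylation, 0 were called with the series term in edgeR (median log2 fold change 0.0039). The highest counts, not corrected for length, were those of the deubiquitinase genes Usp9x (-0.17, adjusted p = 0.385) and Usp7 (-0.07, adjusted p = 0.564). Of 12 regulators of de novo methylation and imprints 0 were called (median -0.04). Trim28, the KRAB zinc finger corepressor that protects imprints, was at 0.10 (adjusted p = 0.709), the histone methyltransferase gene Nsd1 at -0.26 (adjusted p = 0.0510) and the insulator protein gene Ctcf at -0.32 (adjusted p = 0.05002, not under the threshold). Within the forties series Ctcf (-0.47, adjusted p = 0.0393) and Smchd1, which acts in X inactivation (-0.47, adjusted p = 0.0486), were called lower.

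Among 18 TET partners and base excision repair genes, 1 was called higher and 1 lower with the series term, against 5.7% of all records. The median log2 fold change of the 18 genes was 0.17, beside -0.01 over all records. Xrcc1, a scaffold protein of repair, rose from 1997 ± 251 to 2702 ± 263 normalized counts (SD, n = 4 clones; log2 fold change 0.44, adjusted p = 0.0221 from edgeR). Its genotypes did not overlap, as for 8.33% of all records. Apex1, the endonuclease that cuts at the site left by TDG, fell from 1568 ± 342 to 1164 ± 307 (log2 fold change -0.44, adjusted p = 0.0189). None of the 7 readers of methylated CpG was called with the series term (median -0.21), and Mbd3 and Mbd1, with the most counts, had changes of -0.21 and -0.13 (adjusted p = 0.368 and 0.442). Zbtb4 was called lower within the thirties series (-1.01, adjusted p = 0.0146) and was at 0.30 in the forties (adjusted p = 0.400), with an adjusted p of 0.0529 for the difference.

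The supply of the methyl donor and of 2-oxoglutarate, the cosubstrate of TET enzymes, held 3 called genes among 12 tested with the series term. Of these 1 was higher and 2 were lower, and of all records 5.7% were called. Mat2a, which makes S-adenosylmethionine, had 11160, 12352, 23376 and 21059 normalized counts in Ctrl 33, 34, 41 and 43 and 6517, 7205, 10365 and 13164 in TKO 35, 37, 47 and 48. It was lower in TKO clones of both series, and the share of all records that separate in both was not counted. Over all clones the genotypes overlapped, because TKO 48 exceeded Ctrl 33 and Ctrl 34. The log2 fold change of Mat2a was -0.85 (SE 0.10; edgeR adjusted p = 0.0031). Shmt1, of serine and folate metabolism, was lower by a log2 fold change of -0.41 (adjusted p = 0.0252). Idh2, the mitochondrial isocitrate dehydrogenase that makes 2-oxoglutarate, rose from 6336 ± 825 to 11066 ± 2341 (SD, n = 4 clones), a change of 0.80 on the log2 scale (adjusted p = 0.0118). Its genotypes did not overlap, as for 8.33% of all records. Calls of single list genes were not followed when 1 clone was left out.

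**Figure D5:**
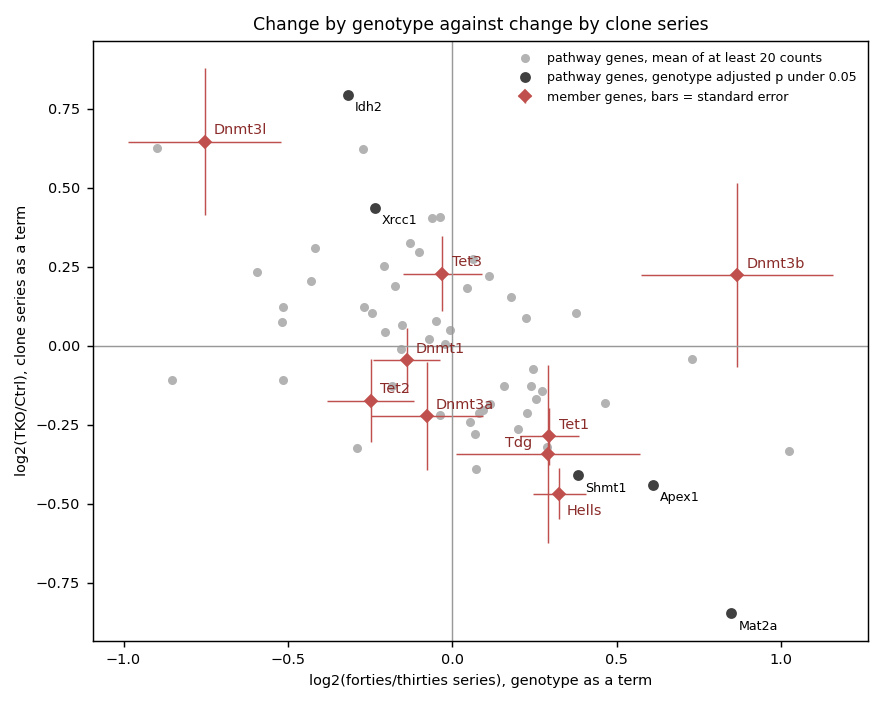
Log2 fold change of TKO over Ctrl with the series as a term (vertical axis) against that of forties over thirties with genotype as a term (horizontal axis), for the members (diamonds with standard errors) and the pathway genes (circles, dark and named where the genotype call passed). Hells at 0.33 and -0.47 lies near Shmt1 and Apex1, and Dnmt3l lies at -0.75 and 0.65.

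Germline genes known as targets of promoter methylation, such as Dazl and Ddx4, were not called by genotype with the series term (0 of 12 tested, median 0.00019). Of all records 5.7% were called. The germline genes with the most counts, Tex19.1 and Hormad1, had changes of -0.87 and 0.25 (adjusted p = 0.0832 and 0.458 from edgeR). All 12 had reads in every clone, with means over the clones from 19.5 (Asz1) to 3688 (Tex19.1) normalized counts. Their methylation was not measured. Of 16 S-phase replication genes 0 were called by genotype (median -0.01), with Mcm7 at 0.03 and Mcm5 at -0.04 (adjusted p = 0.856 and 0.757). Pou5f1, which encodes OCT4, was the only called gene among 9 pluripotency markers tested, lower at -0.61 (adjusted p = 0.0101). It was also called without the series term (-0.61, edgeR adjusted p = 0.0380), the only list gene that was, against 0.24% of all records. The paper, which also required a minimum fold change, counts OCT4 among reprogramming factors that the mutations did not affect. It also reports comparable OCT4 levels by flow cytometry of the reporter. OCT4 was also one of the retroviral factors, and the part of the retroviruses in the Pou5f1 change was not tested. Fgf5 (-1.36, adjusted p = 0.0477) and the fibroblast gene Lox (-1.09, adjusted p = 0.0340) were the only other called genes of the marker lists, both lower in TKO clones.

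For each member the tested gene whose log2 normalized count followed it most closely over the 8 clones was sought among 9719 records with a mean of at least 100 counts (9720 for Dnmt3b and Tdg, which lie below that mean). Hells was most like Shmt1 (Pearson r = 0.988), Tet1 most like Hook3 (r = 0.980) and Dnmt3l most like Rgs12 (r = 0.989). The closest genes were Gstm3 for Dnmt1 (r = 0.960), Paqr8 for Dnmt3a (r = 0.967), Yeats4 for Dnmt3b (r = 0.966), Zfp229 for Tet2 (r = 0.961), Chst3 for Tet3 (r = 0.978) and Tmem127 for Tdg (r = 0.948). These are descriptions of 8 clones that share genotype, series and depth, and the best of so many records would be high for any gene.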

How the data were processed

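RNA of 8 iPSC clones was prepared by the authors with the Illumina TruSeq RNA kit, read single-end and mapped to mm9 transcript sequences with BWA (0.7.5a per the submitters' processing notes). The deposited values are whole-number read counts for 27052 RefSeq records, neither scaled nor filtered. The rules for strand and for reads that match several records are not given in the sources used here. Symbols came from a RefSeq gene table of GRCm38.p6, used for names, which named 26321 records, and start sequences from RefSeq (GRCm38.p6), where all 10 members had a start. Gene positions are from an mm9 annotation.

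The 16235 records that reached 5 reads in 4 or more of the 8 libraries were scaled by DESeq median-ratio size factors (0.369 to 2.07) and tested in R 4.3.3 with edgeR 4.0.16 (quasi-likelihood), with p-values adjusted by Benjamini-Hochberg over all tested records. A change was called at an adjusted p under 0.05. The models held genotype alone, genotype with the clone series as a term, or the 4 groups of genotype and series, which share 1 estimate of the spread. Changes between series within each genotype were added after values had been seen. Single values were compared with exact two-sided permutation tests. The members and gene lists were chosen with earlier results of these data known. The text names all members, each list gene called by genotype over all clones, with or without the series term (where a list had none, the 2 with most counts, not corrected for length), some genes called within a series or between series, chosen after their values were seen, and for each member the gene most like it. The lists cover partners of maintenance, regulators of de novo methylation, TET partners and repair, readers, methyl donor supply and germline targets of promoter methylation. They also cover S-phase, primed epiblast, pluripotency, fibroblast and sex-linked genes, and several genes have more than 1 record. The alternatives tried were DESeq2 1.42.0, TMM scaling, testing without a filter, a minimum of 10 reads in each library, counts summed per symbol and leaving out each clone. The scripts were tested on simulated counts. Low counts limit Dnmt3b, Dnmt3l and Tdg most.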

Additional observations from a re-analysis of the deposited data

Results flagged for a closer look

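In 2 of 18 sets of 4 clones, 1 clone stood far from the other 3, and chance gives such a gap in about 1 in 20 sets. Dnmt3b had 41.3 normalized counts in TKO 35, the lowest TKO clone, where the other TKO clones had 63.7 to 66.1. Tet2 had 2659.5 normalized counts in TKO 47, below the 4108 to 4290 of the other TKO clones.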

How the results depend on the processing

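No paired analysis was possible, because clone numbers are not shared by the genotypes. DESeq2 called 513 records in place of 39 for TKO against Ctrl, 2171 in place of 926 with the series term, 1099 in place of 322 within the forties series and 914 in place of 211 for the interaction. Without a filter there were 732 within the forties series and 671 for the interaction. Members called with the series term were 2 in DESeq2 (Hells and Tet1), and within the thirties series 2 (Hells and Dnmt3l) with TMM scaling, without a filter, with at least 10 reads per library and in DESeq2. Between series, 4 members were called in place of 3 without a filter and in DESeq2. The cause was not tested.

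Leaving out 1 clone gave 15 to 86 records for TKO against Ctrl, 91 to 1623 with the series term, 27 to 3457 in the thirties, 7 to 1483 in the forties, 1 to 1314 for the interaction and 1281 to 3816 between series. Members called were 0 to 2 with the series term, 0 to 2 in the thirties, 0 to 1 in the forties and 0 to 2 between series. The most records came without TKO 48 over all clones and with the series term, and without Ctrl 33 within both series, and the fewest without Ctrl 41 or TKO 35, without TKO 37, and without TKO 35 (thirties) and Ctrl 41 (forties). Where a genotype kept 1 clone in a series, that clone was assumed to vary like the other groups.

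Some small uncalled log2 changes turned sign, with these ranges when 1 clone was left out. For TKO against Ctrl, Dnmt1 ran from -0.093 to 0.056 and Dnmt3b from -0.17 to 0.33, and with the series term Dnmt1 from -0.12 to 0.048. Within the thirties series Dnmt1 ran from -0.069 to 0.14 and Tet2 from -0.24 to 0.044. Within the forties series Dnmt1 ran from -0.35 to 0.075, Dnmt3a from -0.32 to 0.24, Dnmt3l from -0.062 to 0.57 and Tet2 from -0.59 to 0.041. For the interaction Dnmt1 ran from -0.38 to 0.044, Dnmt3a from -0.0065 to 0.63, Tet1 from -0.20 to 0.16, Tet2 from -0.48 to 0.15, Tet3 from -0.084 to 0.24 and Tdg from -0.41 to 0.36 (-0.016 with counts summed per symbol). Between series Dnmt3a ran from -0.18 to 0.079 and Tet3 from -0.10 to 0.048. Of the member values under these alternatives, 615 kept direction and side of the threshold, 34 lost a call and 12 gained one. Dnmt3b and Tdg rest on few reads, and Uhrf1 gives no value.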
